A study of Homo sapiens with 6 samples.

Results

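The genes described here are 10 genes of heme and iron handling, HMOX1, HMOX2, BLVRA, BLVRB, FTH1, FTL, TFRC, ALAS1, FECH and ISCU, taken by symbol from the 35993 genes of the deposited table. Each symbol matched 1 row. RNA was sequenced from MIA PaCa-2, an established human pancreatic carcinoma cell line, in 3 untreated libraries and in 3 libraries made 48 h after the cells received 4 µM rhCYGB. Both groups belong to the same line, and the protocol moved the cells to medium with 1% FBS before treatment. rhCYGB is the recombinant human form of cytoglobin, a globin that carries heme. The study made it in E. coli and purified it by affinity and size exclusion chromatography. Its supplement reports that the protein was free of endotoxin and not toxic in vitro. The paper also reports that rhCYGB slowed the growth of MIA PaCa-2 cells in a dose-dependent way. At a dose below the one used here, it raised the share of cells in the G1 phase, before DNA synthesis. The part of slower growth in the results below was not tested. Neither group of libraries came from cells given another bacterially made protein. The study asked how cytoglobin that reaches the cells from outside alters their gene expression.

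Heme is an iron-containing ring that serves as the working group of globins, cytochromes and catalase. Cells build it in a chain of steps that begins in mitochondria with ALAS1 and ends there when FECH inserts the iron. HMOX1 and HMOX2 open the ring and set its iron free, and BLVRA and BLVRB reduce the green product biliverdin to bilirubin. Iron enters most cells on transferrin through TFRC, is stored in shells of ferritin made of FTH1 and FTL, and is built into iron-sulfur clusters on the scaffold protein ISCU. In textbook accounts iron-regulatory proteins hold back ferritin translation and protect the TFRC message when iron is scarce, while heme inactivates BACH1, a repressor of HMOX1 and the ferritin genes.

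The total count on genes lay between 34838399 and 42271299 in the 6 libraries. All 10 genes passed the filter on low counts, which left 14728 genes for testing. Levels are given as CPM, counts scaled to a common library size with TMM factors. For comparisons, the quasi-likelihood test of edgeR was used, with p-values adjusted by Benjamini-Hochberg over the genes tested. A log2 fold change of rhCYGB against untreated is written log2FC, and its standard error SE. A gene was called changed at an adjusted p under 0.05. The common biological coefficient of variation between libraries of a group was 5.48%, and changes well under 2-fold passed the test. Nothing in the labels says whether the libraries of a group came from separate cultures, so the p-values measure only the spread between these libraries, which may be technical. In bulk RNA, a change in the number of cells that express a gene and a change in RNA per cell cannot be told apart. Of the epithelial markers, KRT8 and KRT18 were above 1151 CPM in every library, whereas EPCAM had 0 counts in each and CDH1 at most 2. Of the erythroid markers, ALAS2, HBB and EPB42 had 0 counts in every library, and the list summed to between 0.511 and 0.872 CPM. Of the 5 immune markers, PTPRC, CD163 and CD3E had 0 counts. The summed immune markers lay between 34.3 and 38.0 CPM in untreated and between 70.4 and 72.4 CPM in rhCYGB-treated libraries, nearly all of it CD68, a lysosomal protein. Of the 7 stellate cell and fibroblast markers, DCN and LUM had 0 counts, and the list summed to between 9.72 and 9.98 CPM in untreated and between 5.22 and 5.67 CPM in treated libraries. The lower sum was mostly COL3A1, from 3.80 to 4.24 CPM in untreated and from 0.0538 to 0.244 CPM in treated libraries. ACTA2 was not called changed (log2FC -0.08). The part of these marker levels in the results was not tested.

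All 10 genes were called changed after rhCYGB, 7 higher and 3 lower. Of all genes tested, 77.6% were called, so the share of these genes that passed the test is to be read against a background in which most genes passed, 39% higher and 38.6% lower. HMOX1, FTH1, ISCU and FTL were higher by 2-fold or more, 4 of 10 genes against a background of 27.1% in either direction and 12.4% higher. ALAS1, BLVRA and BLVRB rose by less than 2-fold. TFRC, FECH and HMOX2 fell by less than 2-fold. For each of the 10 genes the groups did not overlap, which was also true of 79.5% of the genes tested, 39.8% with the treated libraries above and 39.7% with them below. The median log2FC was 0.73 over the 10 genes and 0.00 (-0.0046) over all genes tested. The study itself names HMOX1 among the antioxidant genes that were higher in the same libraries. The changes given here, that of ISCU included, come from those libraries and are not independent evidence.

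**Figure D1:**
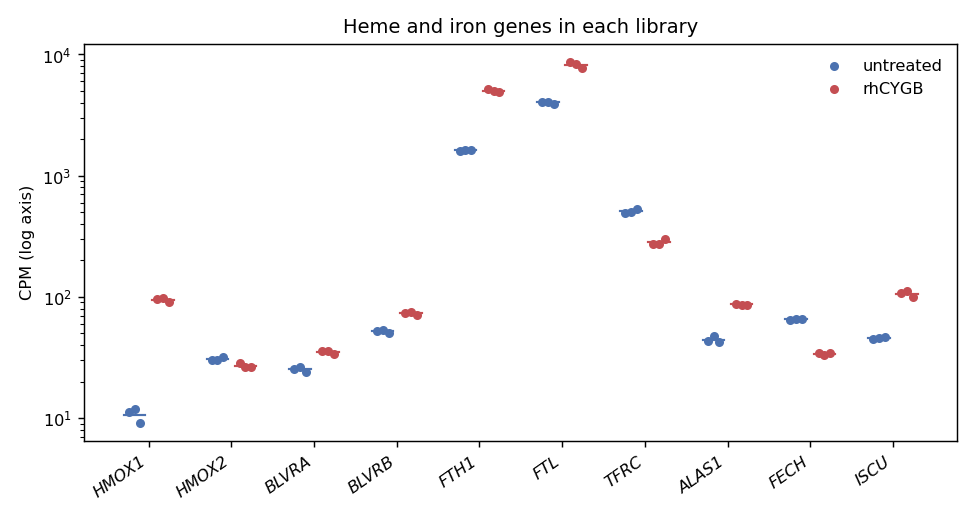
CPM of the 10 genes in each library on a log axis, with 1 point per library, untreated in blue and rhCYGB-treated in red, and a bar at the mean of each group of 3. The points of the groups are apart for every gene, by the widest gap for HMOX1 (9.02 to 11.8 against 91.4 to 98.0 CPM) and the narrowest for HMOX2 (30.2 to 31.7 against 26.1 to 28.5 CPM).

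Promoter sequence was examined for the genes with an entry in the RefSeq table of build GRCh38.p14, which were 8 of the 10. HMOX1 and FTH1 had no entry. In the 250 bases before each start, 2 motifs were searched on both strands, the core of the antioxidant response element (TGACNNNGC), which NRF2 binds with small MAF proteins, and the core of the element bound by C/EBP-ATF dimers (TGATGNAA). The first was present upstream of ISCU and FECH, and in 11% of all 27305 promoters of the same length. The second was in none of the 8 and in 3.19% of all promoters. The 2 genes with a match moved in opposite directions. The 4 sequences below run 5′ to 3′ on the strand of the gene and end at the base before the start site. ISCU and FECH are shown for their matches, which are in capitals. FTL, a storage gene, and TFRC, an uptake gene, are shown because their RNA moved in opposite directions. No motif overlapped another, and a match describes letters only.
ISCU (chr12:108562346-108562595, plus strand): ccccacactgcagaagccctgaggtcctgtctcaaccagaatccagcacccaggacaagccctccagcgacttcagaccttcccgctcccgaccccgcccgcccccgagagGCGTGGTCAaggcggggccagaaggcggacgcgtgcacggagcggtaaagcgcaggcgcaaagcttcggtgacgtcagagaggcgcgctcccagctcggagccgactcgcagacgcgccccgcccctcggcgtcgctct
FECH (chr18:57586703-57586952, minus strand): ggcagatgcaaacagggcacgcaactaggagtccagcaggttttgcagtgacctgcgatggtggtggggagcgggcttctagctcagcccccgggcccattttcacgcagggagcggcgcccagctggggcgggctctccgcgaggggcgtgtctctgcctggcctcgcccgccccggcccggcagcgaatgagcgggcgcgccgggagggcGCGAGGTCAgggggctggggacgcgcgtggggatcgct
FTL (chr19:48965059-48965308, plus strand): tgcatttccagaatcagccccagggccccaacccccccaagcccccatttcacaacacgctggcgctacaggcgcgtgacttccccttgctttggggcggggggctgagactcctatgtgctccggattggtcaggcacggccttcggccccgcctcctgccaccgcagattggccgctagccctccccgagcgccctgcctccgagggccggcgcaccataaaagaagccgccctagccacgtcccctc
TFRC (chr3:196082091-196082340, minus strand): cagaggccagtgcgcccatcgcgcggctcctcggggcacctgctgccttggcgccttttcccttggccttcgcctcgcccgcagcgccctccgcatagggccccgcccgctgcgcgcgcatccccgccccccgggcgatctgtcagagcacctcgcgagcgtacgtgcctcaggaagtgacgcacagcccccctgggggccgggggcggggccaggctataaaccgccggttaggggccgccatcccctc
The ISCU match began 139 bases before the start and read TGACCACGC on the opposite strand. The FECH match began 38 bases before the start and read TGACCTCGC on the opposite strand. FTL and TFRC held neither motif in this window.

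HMOX1, the inducible heme oxygenase, had the largest change of the 10 genes. Its counts were 416, 527 and 368 in untreated libraries 1, 2 and 3 and 3558, 3259 and 3369 in rhCYGB libraries 1, 2 and 3. This corresponds to 11.2, 11.8 and 9.02 CPM against 95.8, 98.0 and 91.4 CPM. Every treated library stood above every untreated one, and the treated libraries were closer to each other in proportion (coefficient of variation 3.52%) than the untreated ones (13.5%). The mean rose from 10.6 ± 1.44 to 95.04 ± 3.35 CPM (SD, n = 3 libraries each), or 8.91-fold, with a 95% interval of the log2FC from 3.00 to 3.31 (adjusted p = 1.38e-14). In absolute size this change was at percentile 98.2 of the genes tested.

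HMOX2, the constitutive heme oxygenase, moved the other way by a small amount. It had 30.3, 30.2 and 31.7 CPM in the untreated libraries and 28.5, 26.1 and 26.3 CPM in the treated ones. The lowest untreated library was above the highest treated one. The log2FC was -0.19 (SE 0.057, adjusted p = 0.00756), at percentile 17.5 in absolute size. Without TMM factors, on total counts, it was -0.35, while the median of all genes then lay at -0.17. In the deposited table HMOX2 overlaps NMRAL1 by 1635 bases. NMRAL1 had between 792 and 1251 counts, and whether the counting used strand is not given in the sources used here.

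FPKM, the authors' value scaled to transcript length and depth, allows the oxygenases to be set side by side. The FPKM of HMOX1 was 0.386 ± 0.065 times that of HMOX2 in untreated libraries and 3.87 ± 0.249 times in treated ones (SD, n = 3). The order of the oxygenases was thus exchanged between the groups, from HMOX2 above HMOX1 in each untreated library to HMOX1 above HMOX2 in each treated one. An exact two-sided permutation test of the ratio gave p = 0.1, the smallest p that 3 against 3 libraries allow, and 0.125 after Benjamini-Hochberg adjustment over 5 such ratios.

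Both biliverdin reductases rose together. BLVRA, the reductase that acts on the main biliverdin isomer of adults, had 25.6, 26.3 and 24.1 CPM in untreated and 35.8, 35.4 and 33.7 CPM in treated libraries. Its log2FC was 0.47 (SE 0.056, adjusted p = 2.03e-06). BLVRB, which also reduces flavins, had 52.4, 53.5 and 50.2 CPM against 74.1, 75.0 and 70.7 CPM, a log2FC of 0.49 (SE 0.046, adjusted p = 9.84e-08). For both genes the treated libraries lay above the untreated ones. The FPKM ratio of BLVRA to BLVRB was 0.347 in untreated and 0.336 in treated libraries, with overlapping ranges (exact two-sided permutation p = 0.3). Under the scalings tried, both rises were smallest with limma on FPKM or with total counts, down to 0.27 for BLVRA and 0.32 for BLVRB, and both calls held. POR, the reductase that supplies electrons to the heme oxygenases, was the other gene of the heme breakdown list. It rose from 103 ± 1.56 to 158 ± 3.27 CPM, a log2FC of 0.62, and is named here after its values were seen.

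Ferritin held the highest levels of the 10 genes and gained the most reads. FTH1, the heavy chain that oxidizes iron for storage, had 1606, 1615 and 1633 CPM in untreated libraries and 5164, 4952 and 4864 CPM in treated ones. The untreated libraries differed by a coefficient of variation of only 0.859%, and no library overlapped between the groups. The change was 3.09-fold (log2FC 1.63, 95% interval 1.56 to 1.69, adjusted p = 9.96e-16).
FTL, the light chain that favours the mineral core, had 4087, 4077 and 3884 CPM against 8659, 8350 and 7717 CPM. It rose 2.05-fold, with a log2FC of 1.04 and a 95% interval from 0.96 to 1.12 (adjusted p = 1.20e-12). The interval includes 2-fold, and the log2FC was 0.87 with total counts. The chains together took between 0.584% and 0.603% of all counts in untreated libraries and between 1.19% and 1.29% in treated ones.
FTH1 rose more than FTL, and their intervals did not overlap. The FPKM of FTH1 was 0.292 ± 0.011 times that of FTL in untreated and 0.439 ± 0.015 times in treated libraries, 1.504-fold higher (exact two-sided permutation p = 0.1, the smallest possible, and 0.125 adjusted over the 5 ratios). Ferritin genes have many processed copies in the genome, and reads may be split among them. The table lists 20 rows for copies of FTH1 and 10 for copies of FTL. Summed, these had at most 0.629% and 0.0196% of the counts of their parent gene in any library. FTH1 overlaps BEST1 by 1231 bases in the deposited table, a gene with between 41 and 213 counts.

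TFRC, the transferrin receptor through which cells take up iron, fell while ferritin rose. It had 493, 505 and 532 CPM in untreated libraries and 271, 274 and 298 CPM in treated ones, so the highest treated library was well below the lowest untreated one. The mean fell from 510 ± 20.1 to 281 ± 14.7 CPM, a log2FC of -0.86 (SE 0.043, adjusted p = 6.45e-11), or 1.82-fold lower. With total counts, upper-quartile factors or limma on FPKM it passed 2-fold, each with a fold change just over 2. The FPKM of TFRC was 0.0756 ± 0.0023 times that of FTH1 in untreated libraries and 0.0135 ± 0.0011 times in treated ones. This ratio was 5.59-fold lower after rhCYGB (exact two-sided permutation p = 0.1, the smallest possible, 0.125 adjusted over the 5 ratios).

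ALAS1 and FECH, which carry out the first and the last step of heme synthesis, moved in opposite directions. ALAS1, the rate-limiting enzyme of the pathway outside red blood cells, had 43.5, 47.4 and 42.3 CPM in untreated and 88.0, 85.4 and 86.2 CPM in treated libraries. Its log2FC was 0.96 (SE 0.049, adjusted p = 7.29e-11), and 1.01 without the second untreated library, which was the highest of the untreated ones. FECH had 64.5, 65.7 and 66.2 CPM against 34.2, 32.9 and 34.5 CPM, a log2FC of -0.95 (SE 0.046, adjusted p = 4.14e-11). FECH passed 2-fold with total counts (-1.12), upper-quartile factors (-1.09) and limma on log2(FPKM + 0.1) (-1.10). The groups of libraries were apart for both genes. The FPKM ratio of ALAS1 to FECH rose from 2.26 ± 0.150 to 8.52 ± 0.131, or 3.77-fold (exact two-sided permutation p = 0.1, the smallest possible, 0.125 adjusted over the 5 ratios).

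The other enzymes of the pathway described here were lower, as FECH was, against a background of 38.6% of genes called lower. The log2FC was -1.08 for ALAD, -1.28 for UROS, -1.20 for UROD, -0.71 for CPOX, -0.54 for PPOX and -0.95 for FECH, and each passed the test. CPOX and PPOX are named here after their values were seen. UROS, which closes the ring, fell from 66.4 ± 2.19 to 27.4 ± 2.47 CPM, and UROD, which acts next, from 65.7 ± 2.09 to 28.6 ± 0.80 CPM. ALAD, which joins the first precursors, fell from 15.98 ± 0.546 to 7.55 ± 0.858 CPM. SLC25A38, the mitochondrial carrier that brings in glycine for the first step, rose with ALAS1, from 29.1 ± 1.13 to 85.1 ± 4.53 CPM (log2FC 1.55, adjusted p = 7.32e-13). ALAS2, the erythroid form of the first enzyme, had 0 counts in every library.

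ISCU, the scaffold of iron-sulfur cluster assembly, rose 2.31-fold. It had 44.6, 45.8 and 46.6 CPM in untreated and 107, 111 and 99.0 CPM in treated libraries. The lowest treated library was more than 2 times the highest untreated one. The log2FC was 1.21 (95% interval 1.10 to 1.31, adjusted p = 4.97e-12), and 0.99 with limma on log2(FPKM + 1). Its partners did not all follow. NFS1, the desulfurase that gives ISCU its sulfur, fell from 46.8 ± 1.58 to 17.5 ± 0.526 CPM (log2FC -1.43, adjusted p = 3.12e-12). HSPA9, the mitochondrial chaperone that passes the cluster on from ISCU, rose from 795 ± 5.20 to 2269 ± 28.2 CPM, a log2FC of 1.51. NUBPL, an assembly factor for complex I, fell from 17.6 ± 0.349 to 7.63 ± 0.952 CPM (log2FC -1.21).

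**Figure D2:**
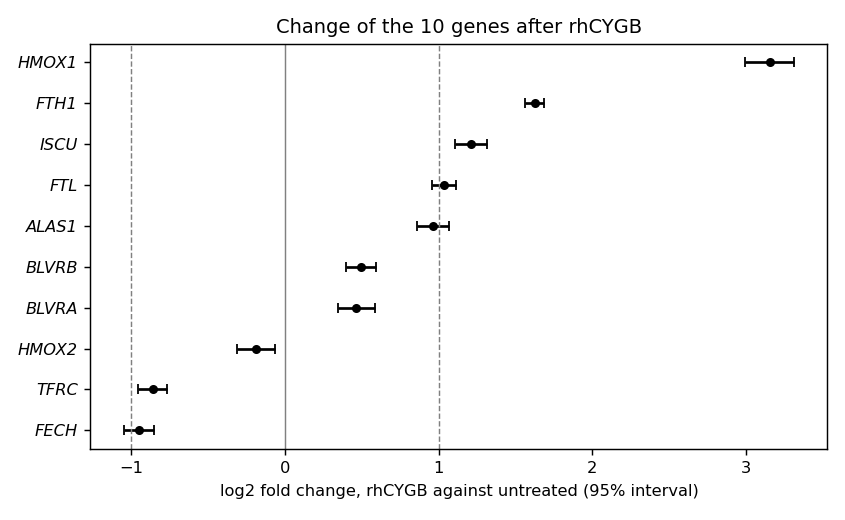
Log2FC of each of the 10 genes, rhCYGB against untreated, from edgeR, with 95% intervals as bars; the solid line marks no change and the dashed lines 2-fold. HMOX1 lies far to the right at 3.16, FTH1 and ISCU lie wholly beyond 2-fold, the interval of FTL (0.96 to 1.12) includes it, and TFRC and FECH lie near 2-fold on the lower side.

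On the length-scaled FPKM scale the levels of the 10 genes spanned from 4298 ± 89.6 for FTL to 6.38 ± 0.822 for HMOX1 in untreated libraries. In untreated cells the order was FTL, FTH1, TFRC, BLVRB, BLVRA, ISCU, ALAS1, HMOX2, FECH and HMOX1. The ranges of BLVRA and ISCU overlapped, as did those of ISCU and ALAS1 and those of ALAS1 and HMOX2, so these neighbours did not differ beyond their spread. HMOX1, from 5.45 to 7.03, was below FECH, from 7.78 to 8.11. After rhCYGB the order was FTL, FTH1, BLVRB, HMOX1, TFRC, ISCU, ALAS1, BLVRA, HMOX2 and FECH. HMOX1, now at 50.8 ± 0.906, had moved from the tenth place to the fourth, and its range overlapped that of TFRC (44.4 to 50.3). TFRC fell from the third place to the fifth. Among all genes tested, the mean FPKM of HMOX1 went from percentile 53.7 to percentile 92.2 and that of FECH from 59.0 to 43.4.

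**Figure D3:**
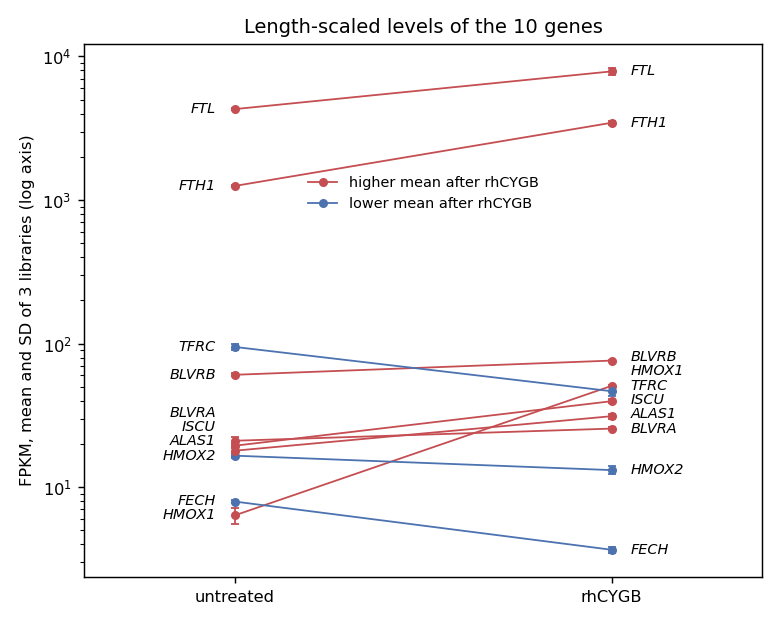
FPKM of the 10 genes in untreated and rhCYGB-treated libraries on a log axis, as mean and SD of 3 libraries joined by a line per gene, red where the mean was higher after rhCYGB and blue where it was lower; names of crowded points are moved apart. FTL (4298 to 7868) and FTH1 (1254 to 3452) stay on top, and the line of HMOX1 (6.38 to 50.8) crosses those of 6 other genes.

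The deposited transcript table lists 33 transcripts for the 10 genes, of which 26 passed the filter. HMOX1, BLVRB, FTH1 and FTL have 1 listed transcript each. Of the 26, 5 were called higher and 2 lower with edgeR's test over 32577 transcripts, in which 29.9% were called, 15.1% higher and 14.8% lower. The called transcripts were those of the 4 genes with a single transcript, variant 2 of ISCU, variant 2 of TFRC and variant 2 of FECH. Transcripts of 1 gene share most of their sequence, so the split of reads among them is an estimate and varied widely between libraries of one group.
TFRC variant 2 (NM_001128148) held 96.2% ± 0.385 of the gene's counts in untreated and 97.0% ± 2.59 in treated libraries, and its log2FC was -0.93. FECH variant 2 (NM_000140) held 89.2% ± 2.94 and 86.2% ± 1.21, with a log2FC of -1.08. ISCU variant 2 (NM_213595) held 81.4% ± 2.19 and 77.0% ± 3.46, with a log2FC of 1.049. The main transcript thus carried the gene's change in these 3 genes.
For ALAS1, BLVRA and HMOX2 no transcript was called, though the genes were. ALAS1 variant 2 (NM_199166) held 63.8% ± 17.05 of the counts in untreated and 50.1% ± 18.1 in treated libraries, a spread too wide to show a shift. BLVRA variant 1 (NM_000712) held 52.0% ± 21.5 and 37.2% ± 10.1. HMOX2 variant 3 (NM_002134) held 67.5% ± 19.5 and 83.0% ± 6.40.

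**Figure D4:**
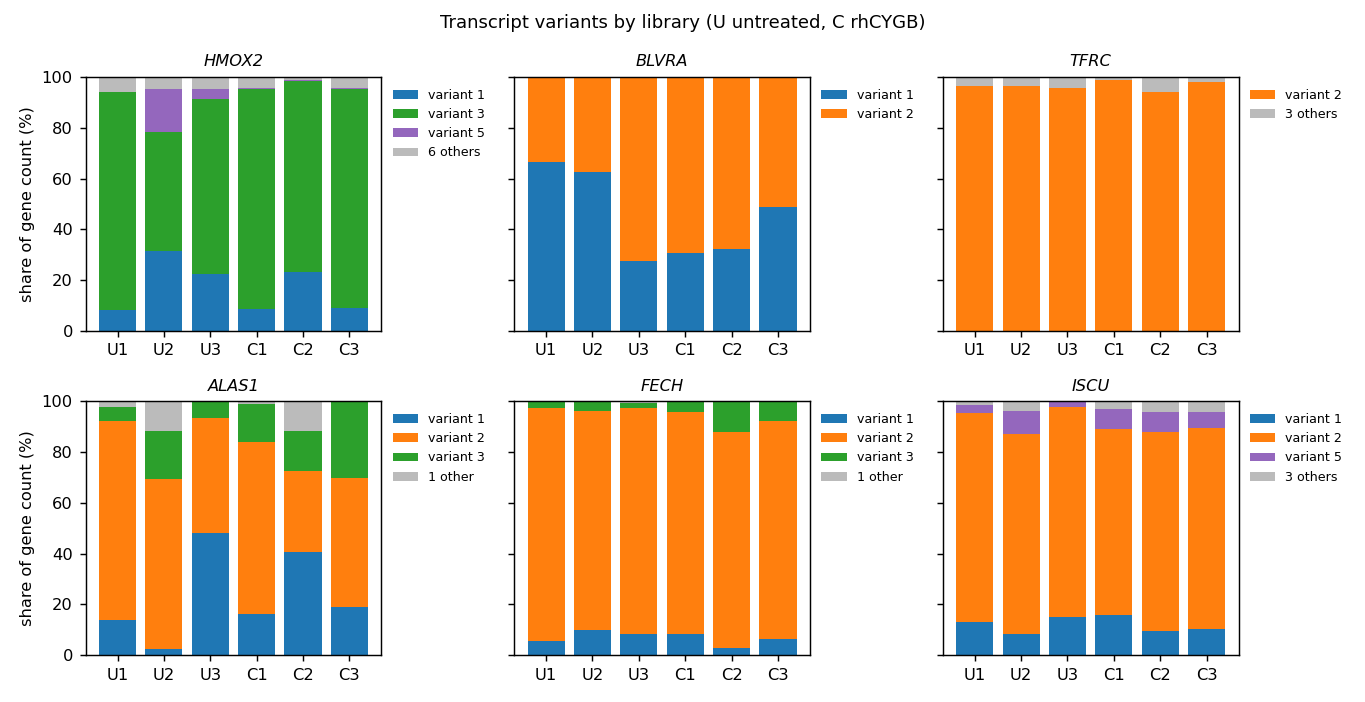
Share of each gene's counts, in percent, given to its transcript variants in each library, for the 6 genes with more than 1 listed transcript; U1 to U3 are untreated and C1 to C3 rhCYGB-treated libraries, and variants under 5% in both groups are summed in grey. Variant 2 dominates TFRC, FECH and ISCU in every library, while the split of ALAS1, BLVRA and HMOX2 varies widely between libraries of one group.

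Around the 10 genes, 89 further genes of heme and iron handling were counted in 9 lists, and 72 of them were tested. Of these 72, 30 were called higher and 34 lower (88.9%, against 77.6% of all genes tested), 10 and 11 of them by 2-fold or more (29.2%, against 27.1%). Their median log2FC was -0.08.
Of the 10 regulators, 7 were called higher, 5 of them by 2-fold, and 3 lower, beside 39% of all genes tested called higher, 12.4% higher by 2-fold and 38.6% lower. Their median log2FC was 0.97, and the list was not tested as a group. NFE2L2, which encodes NRF2, rose from 86.9 ± 3.89 to 238 ± 10.3 CPM (log2FC 1.45). Its partners of the small MAF family rose with it, MAFF from 30.0 ± 1.17 to 242 ± 7.11 CPM (log2FC 3.01), MAFG by 1.95 and MAFK by 1.07 on the log2 scale. MAFK overlaps TMEM184A, which had at most 428 counts. BACH1, the heme-sensing repressor that binds the same sites, also rose, from 36.3 ± 0.871 to 74.4 ± 1.35 CPM (log2FC 1.04, adjusted p = 1.18e-11).
Of the post-transcriptional regulators, named after their values were seen, ACO1, which encodes iron-regulatory protein 1, fell from 38.8 ± 0.899 to 20.8 ± 1.18 CPM (log2FC -0.90). IREB2, for iron-regulatory protein 2, had a log2FC of -0.22 (adjusted p = 0.00111). FBXL5, which marks IREB2 for breakdown when iron is plentiful, rose by 0.91 on the log2 scale.

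In the list of iron storage and ferritin turnover, all 5 tested genes were higher, beside 39% of all genes tested. Besides FTH1 and FTL, already counted above, these were 3 genes, 1 of them higher by 2-fold, beside 12.4% of all genes tested. PCBP1, a chaperone that delivers iron to ferritin, rose from 270 ± 2.29 to 654 ± 19.1 CPM (log2FC 1.28, adjusted p = 7.47e-14). FTMT, the mitochondrial ferritin, had 0 counts in every library.
In the list of iron uptake and reduction, 2 of 8 tested genes were higher and 6 lower, or 2 and 5 of 7 without TFRC, beside 39% and 38.6% of all genes tested. SLC39A14, a carrier of zinc and of iron not bound to transferrin, rose from 169 ± 4.49 to 343 ± 6.78 CPM (log2FC 1.02). Its relative SLC39A8 fell from 29.0 ± 0.615 to 6.44 ± 0.326 CPM (log2FC -2.17, adjusted p = 5.49e-13). MELTF, a membrane protein related to transferrin, fell from 61.9 ± 3.95 to 16.6 ± 0.493 CPM (log2FC -1.90). Its overlapping antisense gene MELTF-AS1 had at most 129 counts.
Only 2 of the 8 genes for iron export and its control were tested. HFE, a partner of the transferrin receptor and part of hepcidin control, fell from 25.9 ± 1.10 to 2.64 ± 0.201 CPM (log2FC -3.29, adjusted p = 8.56e-14). BMP6, an inducer of hepcidin in the liver, had 1.01 ± 0.320 and 3.87 ± 0.227 CPM (log2FC 1.92) and overlaps TXNDC5, which had up to 18954 counts. SLC40A1, the iron exporter ferroportin, had between 0 and 7 counts in the 6 libraries. It was removed by the filter on low counts and not tested, so nothing can be said of a difference in the exporter at this depth.

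In the list of heme transport and binding, 4 of 10 tested genes were higher and 5 lower, near the 39% and 38.6% of all genes tested. The 3 that changed by 2-fold all fell, beside 14.7% of all genes tested lower by 2-fold and 12.4% higher. FLVCR1, known as an exporter of heme and a carrier of choline, fell from 38.8 ± 0.160 to 16.3 ± 0.745 CPM (log2FC -1.25). PGRMC1, a heme-binding membrane protein that associates with FECH, fell from 134 ± 2.37 to 56.2 ± 2.96 CPM (log2FC -1.25). LRP1, a receptor that takes up heme bound to hemopexin, fell from 21.9 ± 1.62 to 9.91 ± 1.00 CPM (log2FC -1.14), and its log2FC was -0.61 with limma on log2(FPKM + 1). In the list of mitochondrial iron import and iron-sulfur assembly, 9 of 20 tested genes, ISCU among them, were higher and 9 lower (median log2FC 0.17), also near those shares. In that of cytosolic assembly, 3 of 9 were higher and 3 lower, with 0 past 2-fold, beside 27.1% of all genes tested.

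**Figure D5:**
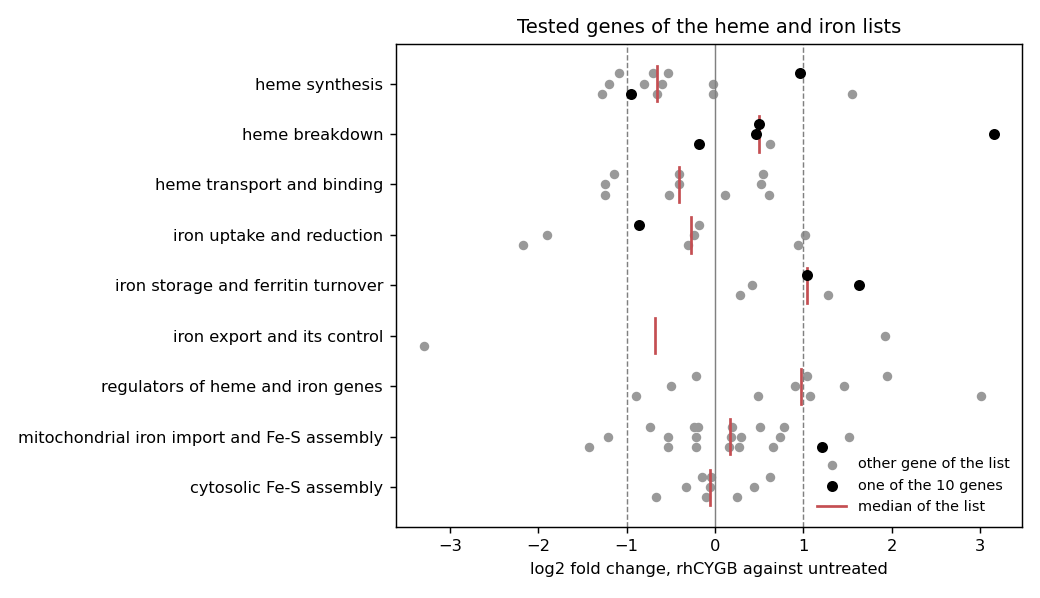
Log2FC of every tested gene in 9 lists of heme and iron handling, rhCYGB against untreated, with the 10 genes in black, other genes in grey, the median of each list as a red bar and 2-fold as dashed lines. Storage genes (median 1.04, or 0.42 without FTH1 and FTL) and regulators (0.97) sit mostly right of 0. Heme synthesis (-0.65) sits mostly left of it, and the lists of iron-sulfur assembly on both sides.

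The genes whose pattern over the 6 libraries was most like that of HMOX1 were sought among 10023 other genes with a mean of at least 5 CPM in each group, by the Euclidean distance between log2 CPM values centred on each gene's mean. The nearest 5 were SESN2 (distance 0.191), ASNS (0.196), NIBAN1 (0.208), OSGIN1 (0.219) and RAB3IL1 (0.222), with log2FCs between 3.10 and 3.19. For ISCU they were ZNF787 (0.0697), SWT1 (0.09997), ZBTB7B (0.102), LOC285074 (0.104) and SEC24B (0.116). With only 2 groups of libraries, such likeness rests mainly on the size of the change.

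In the deposited transcript table, which names no genome build, HMOX1 lies on chromosome 22 from 35777089 to 35790200 and HMOX2 on chromosome 16 from 4524704 to 4560348. BLVRA lies on chromosome 7 from 43798272 to 43846941 and BLVRB on chromosome 19 from 40953675 to 40971652. FTH1 lies on chromosome 11 from 61731757 to 61735106, FTL on chromosome 19 from 49468566 to 49470136 and TFRC on chromosome 3 from 195776155 to 195808961. ALAS1 lies on chromosome 3 from 52232099 to 52248343, FECH on chromosome 18 from 55211609 to 55253934 and ISCU on chromosome 12 from 108955239 to 108963160. These positions differ from those in GRCh38, the build of the promoter sequences, and were not joined with them. TFRC overlaps RNU7-18P, which had 0 counts, and the other 7 of the 10 genes overlap no listed gene.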

How the data were processed

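RNA-seq of untreated and rhCYGB-treated MIA PaCa-2 cells was analysed from 2 deposited tables, per gene and per transcript. According to the study's methods and the submitters' processing notes, the authors made libraries with a stranded mRNA kit, checked reads with FastQC 0.11.7, mapped trimmed reads with HISAT2 2.1.0 and assembled transcripts with StringTie 2.1.3b. Raw read counts, not normalized, were deposited by the authors. FPKM in the deposited tables is scaled to transcript length and depth. The TPM values deposited by the authors, 6 columns per table, were not used. The notes name a mouse build, mm10, whereas the rows are human RefSeq genes, and the build used is otherwise not given in the sources used here.

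Samples were grouped by their titles. Counts were tested with edgeR 4.0.16 in R 4.3.3 (filterByExpr, TMM, glmQLFit, glmQLFTest, all 6 libraries, no block), with intervals from the quasi-likelihood F and a prior count of 2 for log2 CPM. Of 35993 genes, 15205 had 0 counts and 6060 more were filtered. Standard errors were derived from F. Ratios of FPKM were tested by exact permutation. Within a group, no library repeated another: chi-square divided by its degrees of freedom lay from 4.81 to 6.88. Intervals of log2 fold changes include the spread between libraries, and floors for 0 counts cover counting error only.

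The 10 genes, the lists and the tests were chosen with earlier results of these data known. By rule the text names the 10 genes, other list genes called at 2-fold or more (21 genes), transcripts with at least 5% of a gene's counts, and the 5 nearest patterns of HMOX1 and ISCU. Outside the rule, POR, CPOX, PPOX, ACO1, IREB2 and FBXL5 are named after their values were seen. HMOX2 variants 1 and 5, ALAS1 variants 1 and 3, BLVRA variant 2, FECH variants 1 and 3 and ISCU variants 1 and 5 met the share rule and are shown in the plot of transcript shares only. The scripts were tested on simulated data. A few list genes are not reported here. The alternatives were RLE, upper-quartile and no scaling, DESeq2 1.42.0, limma 3.58.1 on log2(FPKM + 1) and log2(FPKM + 0.1), other count filters, counts summed from transcripts, a replicate block and leaving out each library.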

Additional observations from a re-analysis of the deposited data

How the results depend on the processing

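All 10 genes kept their direction and their call under each of 16 alternatives (160 values), and so did the 21 other list genes past 2-fold (336 values) and the 6 list genes named outside the rule (96 values). The number of the 10 genes past 2-fold was 4, and lay between 3 and 5 under the alternatives, because FTL, TFRC, ALAS1, FECH and ISCU lie close to 2-fold. Over all genes tested, 3998 passed 2-fold, against 1977 with limma on log2(FPKM + 1). With total counts the median log2 fold change of all genes was -0.17 and with upper-quartile factors -0.15. The value moved by over 1.5 times for HMOX2 and IREB2 (-0.35 and -0.39 with total counts). For BLVRA and BLVRB it did so with total counts (0.30 and 0.33) and with limma on log2(FPKM + 1) (0.27 and 0.32). With limma on log2(FPKM + 0.1) these genes had 0.28 and 0.33. LRP1 (-0.61) and BMP6 (0.57) moved as much with limma on log2(FPKM + 1). Of the other 72 list genes, 64 were called, and between 60 and 64 under the alternatives. Their split by direction was less stable. It was 30 higher and 34 lower in the main fit, 24 and 40 with total counts or upper-quartile factors, and 23 and 40 with limma on FPKM. Of all called genes, 50.2% were higher in the main fit and 41.0% with total counts. The number of called transcripts of the 10 genes was 7 with edgeR and 14 with the Wald test of DESeq2, and lay between 7 and 9 when a library was left out; the cause was not tested. With the replicate number as a replicate block, 10 of the 10 genes and 63 list genes were called, and 4 of the 10 passed 2-fold. Over all genes tested, libraries with the same number had correlations of their deviations of -0.048, 0.0072 and 0.0055. Untreated library 1 correlated best with rhCYGB library 2 (0.050). No pairing by number was seen in this way, but correlations over all genes cannot exclude it, and the labels do not say. The depth limits what can be said of 17 list genes that had 0 counts or were removed by the filter, SLC40A1 among them.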

Other observations

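Among the globin genes on the erythroid list, HBA1 had between 10 and 18 counts and HBA2 between 9 and 18 counts in each library, with no difference called (adjusted p = 0.873 and 0.585 from edgeR's quasi-likelihood test). HBA1 and HBA2 have near-identical sequence, so their split of reads is uncertain. CYGB, the gene of the protein that was added, had 0 counts in each of the 6 libraries, which allows up to 3 counts, between 0.0669 and 0.0902 CPM.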
